A study of Mus musculus with 6 samples.

Results

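The genes described here are the chromatin modifiers and remodelers of the perioculomotor midbrain, the tissue around the oculomotor nucleus. They were chosen by symbol prefix: Hdac, Kdm, Kmt, Chd followed by a digit, Smarc, Brd followed by a digit, Cbx, Arid, Setd, Ezh, Sin3, Phf, H2af, H3f and Hist. This gave 54 of the 5538 genes with a value. The mouse gene name table used here holds 223 symbols with these prefixes. Those without a value here include every Kdm gene (20 symbols) and every Arid gene (10 symbols). The table lists a gene only where its level was at least 7.0 TPM (a level corrected for transcript length and given relative to all transcripts of a library) in all 6 libraries. The members are therefore the chromatin genes that stayed above that level in both kinds of RNA.

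All libraries came from C57BL/6 mice with CreER under the Fos promoter and a Cre-dependent eGFP-L10a reporter, so that neurons in which Fos was active while 4-OHT was present made a tagged ribosomal protein. Mice had 6 hr of sleep deprivation and 3 hr of recovery sleep, with 4-OHT before one phase or the other. The series design names RS-eGFP neurons, those labelled in recovery sleep, while the phase is not given library by library, and neither is age or sex. IP is the RNA that came down with eGFP antibodies. Input carries no description, and is taken to be RNA of the same dissected tissue without that step. There were 3 libraries of each, every one from a pool of 4 to 5 mice. Tagging follows Fos promoter activity and marks no cell type by itself. In bulk tissue, fewer cells of a type and less RNA per cell cannot be told apart.

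DNA in the nucleus is wound around histone proteins, and cells change access to it with several classes of protein. Methyltransferases and deacetylases write and remove chemical marks on histones, proteins with bromodomains, chromodomains or PHD fingers bind those marks, and remodelers of the SWI/SNF and CHD families use ATP to move or eject nucleosomes. Neurons no longer divide, so they depend on histone variants such as H3.3 and H2A.Z, whose genes are transcribed outside DNA replication. Maturing neurons are also known to exchange subunits of the SWI/SNF complex, leaving the progenitor subunit BAF45a (Phf10) for neuronal relatives. The subunit genes Dpf1, Dpf3 and Actl6a had no value here, so such an exchange could not be examined.

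The libraries differed in ways their groups do not explain. The median gene stood at 27.7 TPM in IP 1 and 31.1 TPM in Input 3, and between 51.0 and 67.2 TPM in the other 4 libraries. Levels are therefore given on a centred scale, log2(TPM + 1) less the library's own median over the 5538 genes, so that 0 is the median gene. Across genes Input 3 correlated with Inputs 1 and 2 at r = 0.722 and 0.736, while those correlated with each other at 0.973, and genes are not independent replicates. The tagged gene, Rpl10a, had 365 to 559 TPM in IP and 36.2 to 117 TPM in Input. Its centred log2 difference, IP minus Input, was 3.03 (SE 0.47, limma adjusted p = 0.649). So with all 6 libraries limma did not call even the tagged gene. Without IP 1 and Input 3 its difference was 2.51 (limma adjusted p = 0.0035). All 10 neuronal markers examined had values, which summed to 5420 to 11400 TPM in IP and 5960 to 9780 TPM in Input. Their median difference was 0.18, with 6 above the median gene and 4 below (Syt1, Map2, Snap25 and Stmn2). Cholinergic and motor neuron markers (5 of 6 with a value) summed to 412 to 643 TPM in IP and 186 to 326 TPM in Input. Their median difference was 1.28. In 3 of the 5 the centred IP values lay above all Input values, as in 6.93% of all genes, while Slc18a3 and Slc5a7 overlapped. With all 6 libraries limma called 0 of the 5. Without IP 1 and Input 3 it called all 5 higher, beside 3.38% of all genes. Endothelial markers (2 of 8, Cldn5 and Pecam1 without) summed to 93.3 to 453 TPM in IP and 32.1 to 78.4 TPM in Input, highest in IP 2. The part of cell composition in the values of the members was not tested. Astrocyte markers (5 of 10 with a value, Aqp4 and Slc1a2 without) summed to 261 to 480 TPM in IP and 230 to 851 TPM in Input, lowest in Input 3. Oligodendrocyte markers (5 of 9, Mog without) summed to 357 to 4390 TPM in IP and 528 to 4770 TPM in Input, with IP 1 and Input 3 lowest. Of 9 microglial and 10 proliferation markers 1 each had a value, and of 4 oligodendrocyte precursor markers 0.

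The members differed between IP and Input about as all genes did. Over the 54 members the median log2 difference, IP minus Input, was 0.04, beside 0.02 over all genes, with 29 members above 0 and 25 below. The quartiles of the members were -0.28 and 0.29, beside -0.28 and 0.32 for all genes. Differences ran from -0.87 for Hist1h2bc to 1.09 for Phf10. Phf10 was the 1 member (1.85%) with a difference of more than 1 log2 unit in either direction, beside 5.54% of all genes. In limma with Benjamini-Hochberg adjustment over all 5538 genes, 0 members were called higher in IP and 0 lower at an adjusted p of 0.05, as were 0.0% of all genes in each direction. At an unadjusted p under 0.05, 3 members were higher (Phf10, Smarca4, Kmt5a) and 3 lower (Smarcb1, Hist1h2bc, Chd3os), beside 3.58% and 3.85% of all genes. The 3 centred IP values lay above all Input values in 2 members (Phf10 and Smarca4; 6.93% of all genes) and below them in 5 (H3f3a, H3f3b, Smarcb1, Smarcc2 and Chd3os; 9.71% of all genes). As TPM, 1 member lay above (Phf5a; 1.7% of all genes) and 3 below (H3f3b, Cbx1 and Chd3os; 6.21% of all genes). Without Input 3, 0 members were called in either direction, beside 0.289% of all genes higher and 0.0181% lower. An exact permutation test of 3 against 3 libraries cannot give a two-sided p under 0.1.

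**Figure D1:**
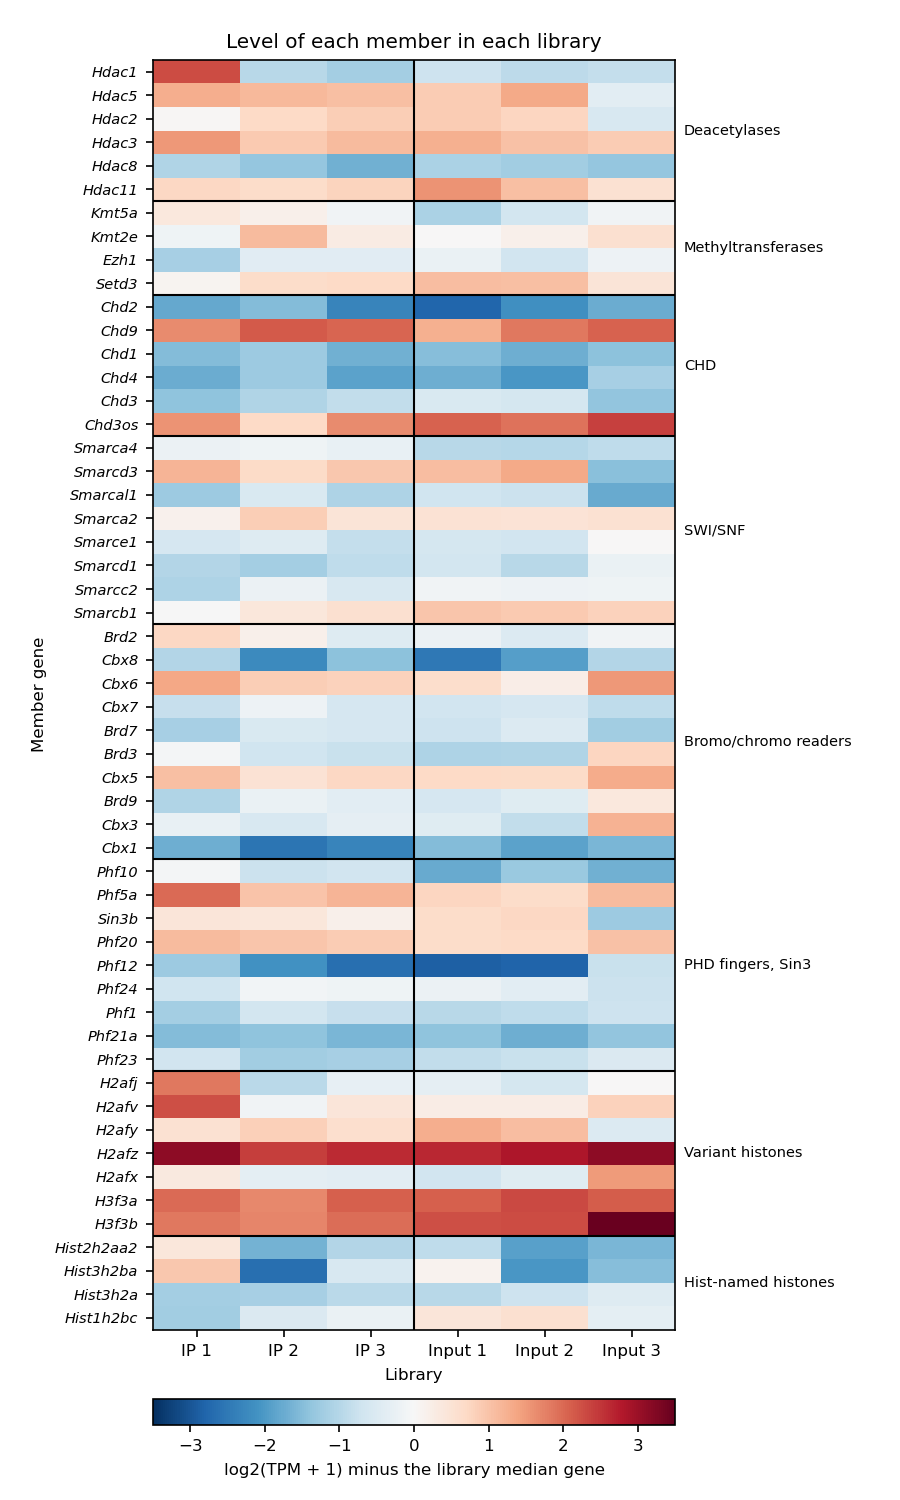
Centred level of all 54 members (rows, grouped by class) in each of the 6 libraries (columns), with red above and blue below the median gene of the library. H2afz lies between 2.42 and 3.14 in every library, Hdac1 is red in IP 1 alone, and Sin3b and Smarcd3 turn blue in Input 3 alone.

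The 250 bases before the RefSeq start (GRCm38.p6) are shown for both genes of histone H3.3, which encode the same protein from different promoters, and for the 2 members whose centred IP values lay above all Input values. Of the 54 members 43 had an entry in that RefSeq table. Capitals mark matches, on either strand, to the TATA box with the letters TATAAA, the box with the letters CCAAT, the octamer with the letters ATGCAAAT, the GC box with the letters GGGCGG or the cyclic AMP response element with the letters TGACGTCA, and overlapping GC boxes run together.
H3f3a, chr1:180813606-180813855, minus strand: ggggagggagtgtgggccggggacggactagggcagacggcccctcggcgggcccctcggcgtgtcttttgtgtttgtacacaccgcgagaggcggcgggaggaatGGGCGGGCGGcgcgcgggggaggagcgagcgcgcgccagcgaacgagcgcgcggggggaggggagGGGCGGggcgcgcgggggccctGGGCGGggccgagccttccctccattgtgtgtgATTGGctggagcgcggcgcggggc
H3f3b, chr11:116024505-116024754, minus strand: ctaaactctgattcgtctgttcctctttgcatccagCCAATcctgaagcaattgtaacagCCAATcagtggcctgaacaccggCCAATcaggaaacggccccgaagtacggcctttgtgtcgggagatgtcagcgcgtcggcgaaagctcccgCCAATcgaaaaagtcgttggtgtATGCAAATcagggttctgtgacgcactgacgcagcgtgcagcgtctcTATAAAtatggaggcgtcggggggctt
Smarca4, chr9:21615919-21616168, plus strand: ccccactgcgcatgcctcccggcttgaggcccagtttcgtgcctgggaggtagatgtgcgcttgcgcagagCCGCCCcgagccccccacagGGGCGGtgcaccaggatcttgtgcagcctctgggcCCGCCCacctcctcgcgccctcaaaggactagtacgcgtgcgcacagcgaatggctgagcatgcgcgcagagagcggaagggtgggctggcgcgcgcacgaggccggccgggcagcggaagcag
Phf10, chr17:14961261-14961510, minus strand: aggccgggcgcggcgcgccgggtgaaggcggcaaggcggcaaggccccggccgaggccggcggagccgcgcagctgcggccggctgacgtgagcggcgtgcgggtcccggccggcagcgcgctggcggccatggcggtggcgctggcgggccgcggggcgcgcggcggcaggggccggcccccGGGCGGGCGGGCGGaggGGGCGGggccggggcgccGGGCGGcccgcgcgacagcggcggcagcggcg

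The window of H3f3b holds 1 TATA box, 4 CCAAT boxes and 1 octamer, motifs known from replication-dependent histone genes, and 0 GC boxes. The window of H3f3a holds 4 GC boxes and 1 CCAAT box and 0 of the other motifs. Those of Smarca4 and Phf10 hold 3 and 5 GC boxes and 0 of the other motifs. Guanine and cytosine make up 77.2% of the H3f3a window, 54.0% of that of H3f3b, 70.8% of that of Smarca4 and 88.4% of that of Phf10. Among all 32851 windows of this length, 12.4% hold the TATA letters, 33.8% CCAAT, 1.6% the octamer, 32.7% a GC box and 1.55% the cyclic AMP response element. A match describes the letters only. In GENCODE M21 the windows of H3f3a and H3f3b both lie inside the gene's span, which begins further upstream, and the Phf10 window overlaps the start of its gene.

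Of the 8 Smarc-named genes, most of them subunits of the SWI/SNF remodeling complex, 1 had centred IP values above all Input values (Smarca4). In 2 they lay below (Smarcb1 and Smarcc2). Of all genes, 6.93% and 9.71% did so. Phf10, also above, is classed with the 9 PHD-finger and Sin3 genes and was taken up here with its value known. Brd7 and Brd9 overlapped. Among the 17 further remodeler subunits described below, 1 lay above and 3 below. Smarca4 encodes BRG1, one of the alternative ATPases of the complex (chromosome 9, 21616169 to 21704230). It had 23.9, 51.0 and 42.0 TPM in IP 1, 2 and 3, and 32.5, 33.4 and 16.4 TPM in Inputs 1, 2 and 3. As TPM these values overlap, but on the centred scale IP stood at -0.20, -0.14 and -0.27 and Input at -0.96, -0.99 and -0.88. The 3 Input values lay close together and all IP values were above them, a difference of 0.74 (SE 0.20, limma adjusted p = 0.649). Without IP 1 and Input 3 the difference was 0.77 (limma adjusted p = 0.0545).

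Smarca2 encodes BRM, the other ATPase, which takes the same place in the complex. It had 30.5, 103 and 70.4 TPM in IP and 91.5, 93.2 and 45.1 TPM in Input, and its centred difference was -0.02 (SE 0.26). Because a ratio within a library does not depend on how libraries are scaled, the pair could be compared directly. Smarca4 was at 0.785, 0.497 and 0.597 times the TPM of Smarca2 in IP 1, 2 and 3, and at 0.355, 0.358 and 0.364 times in the Input libraries. The ratio was thus higher in every IP library than in any Input library, by 0.78 log2 units on average. It was nearly the same in all 3 Inputs, Input 3 included. As Smarca4 already had centred groups that did not overlap and Smarca2 differed by only -0.02, the ratio mostly repeats that separation. It is no independent support for it. Smarca2 was the more abundant of the 2 in all 6 libraries.

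Phf10 encodes BAF45a, a PHD-finger subunit of the PBAF form of the complex (chromosome 17, 14945009 to 14961273). It had 26.2, 33.2 and 31.7 TPM in IP and 18.1, 26.6 and 9.03 TPM in Input. IP 1 lay just under Input 2 as TPM, while on the centred scale IP stood at -0.08, -0.75 and -0.67 and Input at -1.77, -1.30 and -1.68, with no overlap. The difference was 1.09 (SE 0.28, limma adjusted p = 0.649), and 0.83 without IP 1 and Input 3 (limma adjusted p = 0.081). The gene 1600012H06Rik overlaps it on the other strand, and the sources used here do not say whether counting used strand.

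Smarcb1 encodes BAF47 (SNF5), a core subunit of the complex. Its centred values were -0.02, 0.40 and 0.56 in IP and 0.96, 0.92 and 0.81 in Input, all IP values below all Input values, with a difference of -0.58 (SE 0.25, limma adjusted p = 0.649). Smarcc2 encodes the scaffold BAF170. It stood at -1.09, -0.20 and -0.56 in IP and at -0.11, -0.17 and -0.16 in Input, so that IP 2 differed from Input 2 by only 0.03. Its difference was -0.47 (SE 0.28), and -0.24 without IP 1 and Input 3. Smarcd1 and Smarce1, which encode BAF60a and BAF57, had differences of -0.43 and -0.21, with overlapping groups. Smarcd3 encodes BAF60c, a relative of BAF60a. It had 63.9, 91.5 and 98.8 TPM in IP and 138, 171 and 10.7 TPM in Input, so that Input 3 alone set its difference of 0.61 (SE 0.70), which was -0.28 without that library. Smarcal1, a DNA-annealing helicase outside the complex that shares the prefix, had a difference of 0.11. The 8 Smarc-named genes, which leave out Phf10, had a median of -0.11, with 3 above the median gene and 5 below.

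**Figure D2:**
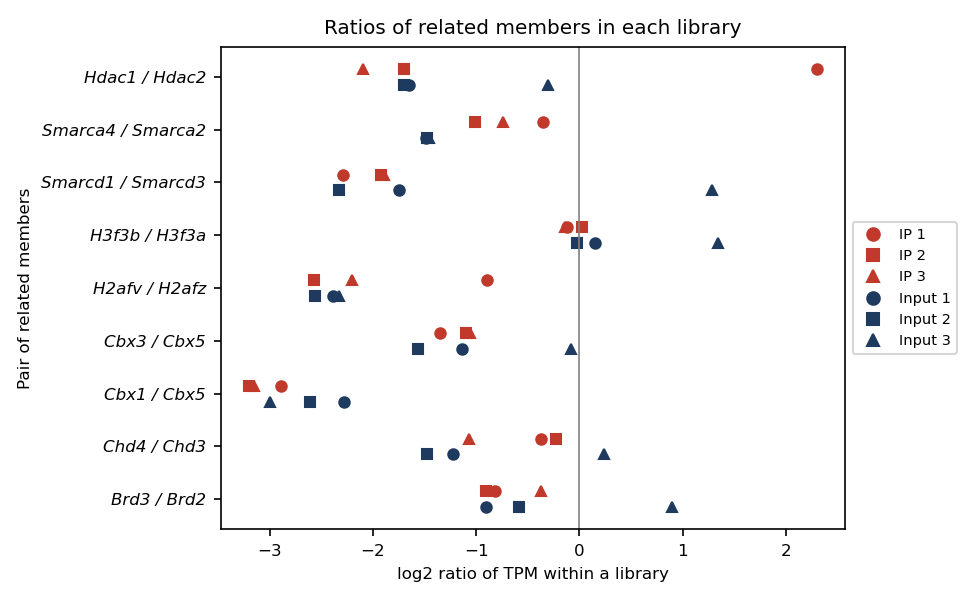
Log2 ratio of TPM of 9 pairs of related members within each library (horizontal axis). Red symbols are IP and dark blue ones Input, and circle, square and triangle stand for replicates 1, 2 and 3. Smarca4 to Smarca2 is the pair whose 3 IP points all lie on one side of its Input points, and Input 3 lies to the right of all other libraries for 5 of the pairs.

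The other pairs of related members showed how far single libraries moved. The Smarca4 pair was the 1 of 10 pairs of symbols compared in which IP and Input ratios did not overlap, and the pairs were drawn up after values had been seen. A full separation of 3 against 3 libraries has a two-sided exact permutation p of 0.1. The share of other gene pairs that separate was not computed. Hdac1 and Hdac2, closely related class I deacetylases, had a ratio of 4.91 in IP 1 but of 0.308 and 0.234 in IP 2 and IP 3, and of 0.32, 0.307 and 0.815 in Inputs 1, 2 and 3. The H2A.Z genes H2afv and H2afz had a ratio of 0.54 in IP 1 and between 0.169 and 0.218 in the other 5 libraries. Smarcd1 and Smarcd3 had a ratio of 2.43 in Input 3 and between 0.199 and 0.296 elsewhere.

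CHD remodelers are helicases with chromodomains. Chd9 was the most abundant of them, with 89.7, 256 and 213 TPM in IP and 154, 244 and 133 TPM in Input, and a difference of 0.24 (SE 0.31). Chd3 and Chd4 are alternative ATPases of the NuRD deacetylase complex. Chd3 had 9.77, 26.6 and 27.6 TPM in IP and 44.2, 43.4 and 11.3 TPM in Input, with IP 1 and Input 3 both low, and a difference of -0.27 (SE 0.31). Chd4 had 7.54, 22.6 and 13.2 TPM in IP and 19.0, 15.5 and 13.3 TPM in Input, and a difference of 0.00 (SE 0.32). Chd1 and Chd2, close relatives of each other, had differences of 0.05 and 0.35. The median of these 5 genes was 0.05, and 0.03 with the symbol described next.

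A sixth symbol, Chd3os, was caught by the prefix and is no remodeler. Its identifier belongs to Rnf227 in GENCODE M21 (chromosome 11, 69340461 to 69342641, plus strand), where it is a protein-coding gene, while RefSeq lists it as a long noncoding RNA. It lies 631 bases from the 3′ end of Chd3 and runs toward it. It had 83.3, 91.7 and 162 TPM in IP and 273, 253 and 168 TPM in Input, and all IP values were below all Input values both as TPM and on the centred scale. The difference was -0.83 (SE 0.34, limma adjusted p = 0.649), and -0.81 without IP 1 and Input 3 (limma adjusted p = 0.141). Without it the median of all members was 0.05.

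Histone deacetylases take acetyl groups off histones and other proteins. The 6 with a value had a median difference of 0.15, with 4 above the median gene and 2 below. Hdac3, a class I enzyme that works within corepressor complexes, had the highest mean TPM over the 6 libraries, though not the highest value in each, with 81.1, 107 and 112 TPM in IP and 154, 138 and 57.8 TPM in Input (difference 0.13, SE 0.26). Hdac5, a class IIa enzyme known to leave the nucleus when neurons are active, had centred values of 1.28, 1.13 and 1.04 in IP and 0.89, 1.32 and -0.36 in Input. Only Input 3 stood apart from the others, and the difference of 0.53 (SE 0.43) was 0.04 without it. Hdac2, a class I enzyme, had 28.2, 93.0 and 93.2 TPM in IP and 120, 115 and 20.7 TPM in Input, with IP 1 and Input 3 low, and a difference of 0.17 (SE 0.44) that was -0.30 without Input 3. Hdac11, the class IV enzyme, had centred values of 0.72, 0.64 and 0.78 in IP and 1.57, 1.06 and 0.53 in Input. Its IP values were below those of Inputs 1 and 2 but above that of Input 3, with a difference of -0.34 (SE 0.31). Hdac8, an X-linked class I enzyme, had -0.14.

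Hdac1 had the largest SE among deacetylases on the centred scale. It had 139 TPM in IP 1, 28.6 and 21.8 TPM in IP 2 and IP 3, and 38.4, 35.2 and 16.9 TPM in Input. Its difference of 0.88 (SE 0.85) rested on IP 1 alone and was -0.24 without that library. The class median without IP 1 and Input 3 was -0.19, with all 6 members below 0 on that reading.

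Methyltransferases add methyl groups, and 4 genes with the prefixes of this class (Kmt, Setd and Ezh) had values. A prefix does not show that a protein has this activity on histones. Kmt5a, also known as SET8, places the single methyl mark on lysine 20 of histone H4. It had 36.3, 64.0 and 46.7 TPM in IP and 29.4, 43.0 and 28.6 TPM in Input. On the centred scale IP stood at 0.38, 0.18 and -0.12 and Input at -1.11, -0.63 and -0.11, so that IP 3 and Input 3 were level and the groups just touched. The difference was 0.76 (SE 0.31, limma adjusted p = 0.649), and 1.01 without Input 3. Kmt2e, a PHD and SET domain protein of the MLL group, had a difference of 0.18 (SE 0.36), with 124 TPM in IP 2 and 25 TPM in IP 1. Ezh1, a catalytic subunit of Polycomb repressive complex 2 known from non-dividing cells, had 11.9, 43.0 and 38.5 TPM in IP and 54.6, 41.6 and 27.4 TPM in Input (difference -0.28, SE 0.30). Setd3, whose known substrate is a histidine of actin and not a histone, had 29.4, 89.0 and 83.4 TPM in IP and 138, 140 and 42.4 TPM in Input (difference -0.38, SE 0.30). The class median was -0.05, and 0.34 without IP 1 and Input 3.

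**Figure D3:**
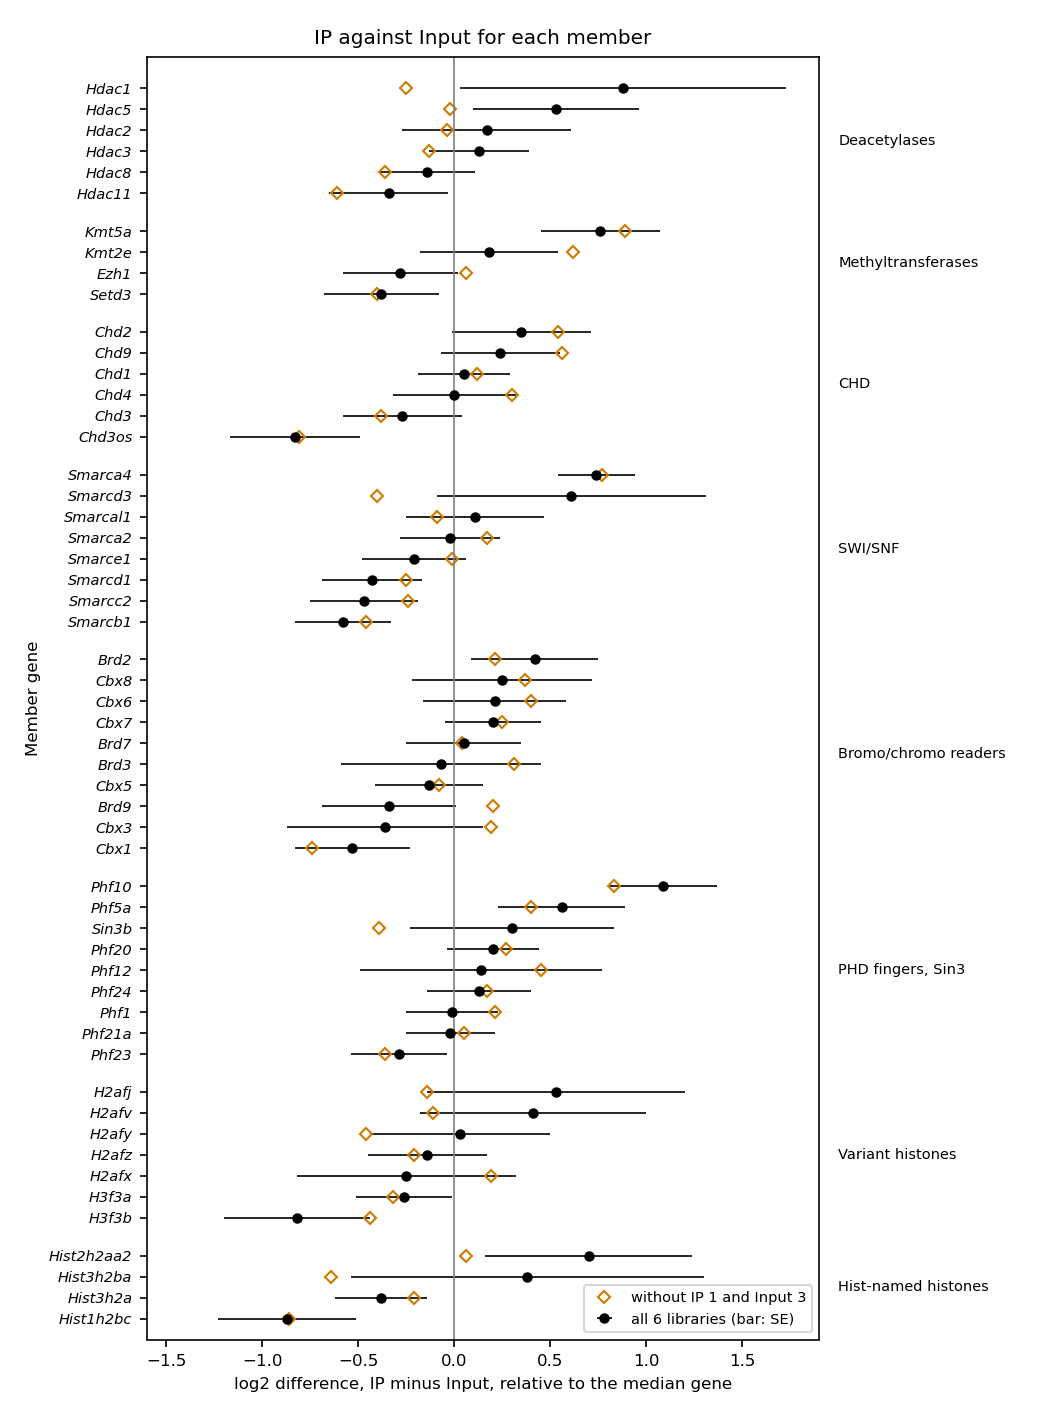
Log2 difference, IP minus Input, relative to the median gene for all 54 members by class, with black points and SE bars for all 6 libraries and open diamonds without IP 1 and Input 3. Smarca4, Phf10, Kmt5a and Hist1h2bc keep their side of 0 in both readings, while Hdac1, Smarcd3, Sin3b and H2afj cross 0.

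Readers bind modified histones. The bromodomain and chromodomain genes (10 with a value) had a median of -0.01, with 5 above the median gene and 5 below. Cbx6, a Polycomb chromodomain protein, was the most abundant by mean TPM, with 72.1, 103 and 89.5 TPM in IP and 99.7, 79.5 and 90.2 TPM in Input (difference 0.21, SE 0.37). Cbx5, which encodes HP1 alpha of condensed chromatin, had 58.3, 80.5 and 85.1 TPM in IP and 105, 108 and 77.1 TPM in Input (difference -0.13, SE 0.28). Cbx1, which encodes HP1 beta, had 7.84, 8.75 and 9.56 TPM in IP and 21.7, 17.7 and 9.64 TPM in Input. As TPM all its IP values were below its Input values, and on the centred scale the groups overlapped, with IP 1 at -1.70 and Input 2 at -1.86 (difference -0.53, SE 0.30). The Polycomb genes Cbx7 and Cbx8 had 0.20 and 0.25. Brd2, a BET protein that binds acetylated histones, had 46.3, 63.8 and 37.4 TPM in IP and 55.7, 48.0 and 28.5 TPM in Input (difference 0.42, SE 0.33). Brd7 and Brd9, subunits of alternative SWI/SNF forms, had 0.05 and -0.34. Cbx3 and Brd3 were higher in Input 3 than in the other libraries, with 73.1 and 53.4 TPM against at most 48.0 and 34.3 TPM elsewhere.

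PHD-finger genes and the corepressor scaffold Sin3b (9 with a value) had a median of 0.14, with 6 above the median gene and 3 below. Besides Phf10, Phf5a had the largest difference of the class. It encodes a subunit of the spliceosome's SF3b complex, so its name reflects a domain and not a role at histones. Phf5a had 112, 114 and 117 TPM in IP and 108, 104 and 67.7 TPM in Input, all IP values above all Input values as TPM (1.7% of all genes), but overlapping on the centred scale (difference 0.56, SE 0.33). Phf24, a neuronal protein, had 16.6, 52.8 and 45.8 TPM in IP and 55.3, 51.6 and 18.1 TPM in Input (difference 0.13, SE 0.27). Phf21a, the CoREST subunit BHC80, which binds unmodified histone H3, had a difference of -0.02 (SE 0.23), with centred values between -1.71 and -1.37 in all 6 libraries. Phf1, a Polycomb accessory protein, and Phf20, of an acetyltransferase complex, had -0.01 and 0.20. Phf23 and Phf12 had -0.29 and 0.14. Sin3b had 12.3 TPM in Input 3 and between 37.7 and 112 TPM in the other libraries, and its difference of 0.30 (SE 0.53) was -0.35 without Input 3.

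The genes of histone variant H3.3 had IP values below all Input values on the centred scale. H3f3b (chromosome 11, 116021912 to 116027962) had 102, 188 and 200 TPM in IP and 309, 332 and 348 TPM in Input, with no overlap as TPM either. Its centred values were 1.85, 1.71 and 1.95 in IP and 2.25, 2.29 and 3.45 in Input, a difference of -0.82 (SE 0.38, limma adjusted p = 0.657). Input 3 was the highest of the 6, and without it the difference was -0.43. H3f3a (chromosome 1, 180800832 to 180813943) had 111, 183 and 220 TPM in IP and 280, 338 and 137 TPM in Input. On the centred scale IP 3 at 2.09 and Input 1 at 2.10 all but met, and the difference was -0.26 (SE 0.25, limma adjusted p = 0.78). In Input 3 the TPM of H3f3b was 2.54 times that of H3f3a, and in the other 5 libraries between 0.909 and 1.11 times. A relation to the letters of the windows was not tested. The groups overlap in this ratio. The antisense gene H3f3aos overlaps H3f3a, and H3.3 genes have processed copies elsewhere in the genome, so how reads were divided is uncertain.

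Variants of histone H2A differed more between libraries than between groups. H2afz, which encodes H2A.Z at active promoters, had the highest mean TPM of all members, with 251, 306 and 318 TPM in IP and 404, 482 and 277 TPM in Input (difference -0.14, SE 0.31). H2afv, the second H2A.Z gene, had 136 TPM in IP 1 against 51.6 and 69.1 TPM in IP 2 and IP 3, and 77.1, 81.5 and 55.0 TPM in Input, with a difference of 0.41 (SE 0.59) that was -0.29 without IP 1. H2afj followed the same pattern, with 103 TPM in IP 1 and between 29.2 and 51.5 TPM in the other libraries. H2afy, which encodes macroH2A1 of repressed chromatin, had 40.6, 102 and 77.6 TPM in IP and 158, 144 and 21.8 TPM in Input. Its difference of 0.03 (SE 0.47) was -0.53 without Input 3. H2afx, phosphorylated at DNA breaks, had 35.3, 44.5 and 39.1 TPM in IP and 39.8, 49.9 and 89.0 TPM in Input, and its difference of -0.25 (SE 0.57) was 0.43 without Input 3. The 7 variant genes had a median of -0.14, with 3 above the median gene and 4 below.

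Hist-named genes belong to the replication-dependent clusters, whose main transcripts end in a stem-loop without a poly(A) tail. Of 70 symbols with this prefix, 4 had a value. Hist1h2bc, an H2B gene (chromosome 13, 23684199 to 23692908), had 11.2, 39.3 and 43.5 TPM in IP and 86.6, 99.7 and 24.3 TPM in Input. IP values were below those of Inputs 1 and 2, and Input 3 lay among them. The difference was -0.87 (SE 0.36, limma adjusted p = 0.649), and -0.58 without IP 1. Without IP 1 and Input 3 it was -0.86, with a limma adjusted p of 0.0404, the 1 member called in that reading, where 3.38% of all genes were called higher and 2.89% lower. Hist3h2a, an H2A gene, had a difference of -0.38 (SE 0.24). Hist2h2aa2 and Hist3h2ba had 0.70 and 0.38, and varied by more than 1 log2 unit between Inputs 1 and 2, as did 1.48% of all genes.

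**Figure D4:**
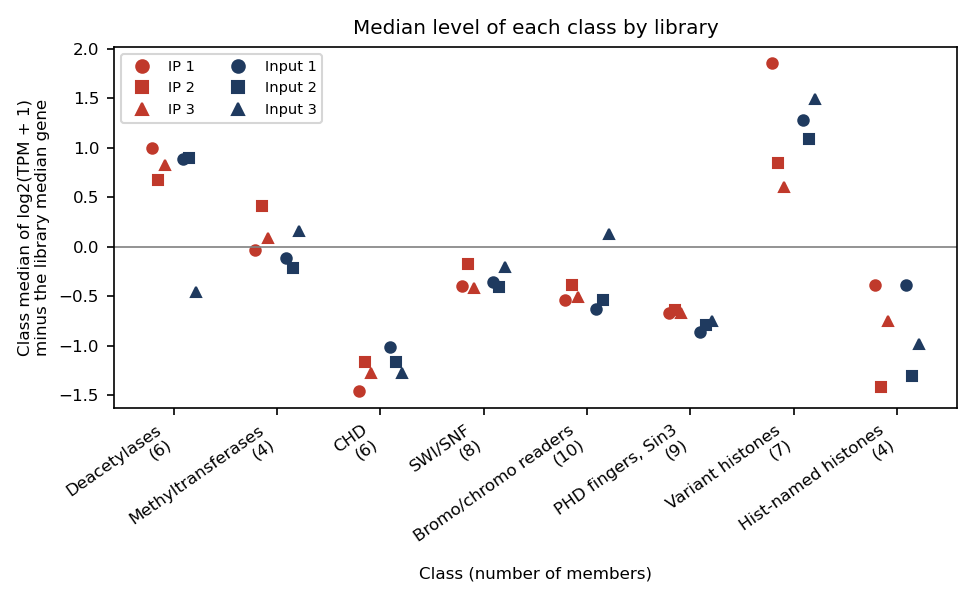
Median centred level of each class (horizontal axis, number of members in brackets) in each library. Red symbols are IP and dark blue ones Input, and circle, square and triangle stand for replicates 1, 2 and 3. Deacetylases lie between 0.67 and 1.0 except in Input 3 at -0.46. PHD-finger genes are the class whose 3 IP points all lie above the Input points, from -0.67 to -0.64 against -0.86 to -0.75. Of its 9 members only 1, Phf10, has centred IP values above all Input values, and classes were not tested.

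Averaged over libraries, variant histones were the most abundant class, with a median centred level from 0.60 to 1.85 in IP and from 1.09 to 1.49 in Input, and CHD genes without Chd3os the least, from -1.69 to -1.27 and from -1.71 to -1.39. The deacetylase median was 1.0, 0.67 and 0.82 in IP and 0.89, 0.90 and -0.46 in Input. The reader median was 0.13 in Input 3 and between -0.63 and -0.39 elsewhere. Input 3 thus stood apart in opposite directions in these classes. Set against the mean of Inputs 1 and 2, it was lower by more than 1 log2 unit in 6 members (Hdac2, Hdac5, Smarcd3, Smarcal1, Sin3b and H2afy; 11.1%, beside 11.8% of all genes). It was higher by that much in 7 (H3f3b, H2afx, Cbx3, Cbx6, Cbx8, Brd3 and Phf12; 13.0%, beside 11.1% of all genes). IP 1 exceeded the mean of IP 2 and IP 3 by more than 1 in 6 members (Hdac1, H2afj, H2afv, Hist2h2aa2, Hist3h2ba and Phf12; 11.1%, beside 13.5%), and was lower by that much in 0 (beside 5.76%). Oligodendrocyte markers had a median centred level of 1.4 in Input 3, 0.78 in IP 1 and at least 2.4 in the other 4 libraries. The mitochondrial transcript mt-Co1 had 36.4 TPM in Input 3, 85.9 TPM in IP 1 and at least 301 TPM in the other 4, and mt-Nd1 was lowest in the same libraries. On the centred scale mt-Rnr2 was low in Input 3 (-1.28) but not in IP 1 (0.76, against 0.71 and 0.36 in IP 2 and IP 3).

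Other chromatin genes were taken from 9 lists with 240 entries, of which 106 had a value. Of these 51 were above the median gene and 55 below, 0 were called by limma over all genes, and IP lay above all Input values in 7 and below in 14, where 6.93% and 9.71% of all genes did so. Without IP 1 and Input 3, limma called 4 of the 106 higher (Tdg, Hif1an, Anp32b and Smc1a) and 3 lower (Morf4l1, Hmgn2 and Prmt2), named after their values were seen, beside 3.38% and 2.89% of all genes. Histone chaperones and architectural proteins had a median of -0.34 over 20 genes, 6 above the median gene and 14 below. Nap1l5, an imprinted relative of nucleosome assembly proteins, had 225, 550 and 681 TPM in IP and 1350, 1270 and 1170 TPM in Input, the difference being -1.28 (SE 0.39). Nap1l1, of the same family, had 0.17 (SE 0.22), with IP above Input. Among acetyltransferase partners (19 genes, median -0.09) Morf4l1, which encodes the chromodomain protein MRG15, had 143, 283 and 338 TPM in IP and 811, 690 and 407 TPM in Input. Its difference was -1.10 (SE 0.28, limma adjusted p = 0.649), and -0.98 without IP 1 and Input 3 (limma adjusted p = 0.0322). Tada3, an adaptor of acetyltransferase complexes, had 0.49 (SE 0.22).

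Dnmt3a, which adds methyl groups to DNA, had 38.3, 78.7 and 45.9 TPM in IP and 16.2, 41.9 and 20.5 TPM in Input. These values overlap as TPM and do not on the centred scale, where the difference was 1.31 (SE 0.41, limma adjusted p = 0.649). Without IP 1 and Input 3 it was 1.46 (limma adjusted p = 0.0622). It was 1 of 5 DNA methylation genes with a value (median 0.76). Subunits of deacetylase complexes had a median of 0.16 over 12 genes, with 8 above the median gene and 4 below. Prmt7, an arginine methyltransferase, and Smyd3, a lysine methyltransferase, had 0.76 and -0.58, in a list with a median of -0.01 over 18 genes. Among 17 further remodeler subunits (median 0.05), Bcl7b had 0.27 with IP above Input, and Ino80c and the neuronal SWI/SNF subunit Actl6b had -0.37 and -0.34 with IP below Input. The sirtuins (5 genes), Polycomb partners (7) and the list of further demethylases (3: Hif1an, Jmjd6 and Jmjd8) had medians of 0.32, -0.04 and -0.09. A place in these lists does not show that a protein acts on histones.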

How the data were processed

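The deposited table holds TPM, which the authors made per library, per the file headers. RSEM, DESeq and mm10 are listed in the submitters' processing notes without versions or roles, and no aligner is named there. TPM keep no read depth, so no counting error can be given, and every value is at or above 7.0. All 6 value columns were used.

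TPM were transformed to log2(TPM + 1) and each library was centred on its median over 5538 genes, with no filter. IP was compared with Input by limma 3.58.1 in R 4.3.3 (group as the only term, variance trend, Benjamini-Hochberg adjustment over all genes, threshold 0.05), and the script was tested on simulated data. Nothing in the labels says more of the replicates than that each is a pool. The p-values measure the spread between these libraries, which holds differences between pools and any in how single libraries were made. Without centring, the median gene differed by -0.23 between IP and Input, and by -0.03 after quantile normalization. Differences under these alternatives are given less that median difference, so they too are relative to the median gene. Members, classes, lists and tests were chosen with earlier results of these data known. Genes named in full are, per class, the members with non-overlapping groups (up to 3 each way), the most abundant one and 20 measured genes of a list of 29, which made 29 genes. Hdac1, Kmt5a, Actl6b and the remaining members were named after their values were seen. For the other lists the rule names the gene with non-overlapping groups and the largest difference each way, and 1 such gene is not reported here. Alternatives were a pseudocount of 0.1, no centring, quantile normalization, a minimum mean of 20 TPM, the replicate number as a block, no variance trend, and leaving out libraries. Ratios of related genes within a library and medians without Chd3os were added after the data were seen. Locations are from GENCODE M21, which uses the same build, and all 54 members matched by identifier.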

Additional observations from a re-analysis of the deposited data

How the results depend on the processing

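Of the 29 genes named by rule, 12 kept their direction relative to the median gene and stayed uncalled under all 13 alternatives. They were Brd2, Chd3, Chd3os, H3f3a, H3f3b, Hdac11, Phf10, Phf5a, Setd3, Smarca4, Smarcb1 and Smarcc2. Among these, Chd3os, H3f3a, H3f3b, Phf10, Smarca4, Smarcb1 and Smarcc2 had centred groups that did not overlap. Leaving out libraries could therefore not change their direction. The replicate block and the fit without a variance trend leave every difference as it was, so they could not change a direction either. With single libraries left out in turn, Smarca4 ranged from 0.71 to 0.77, Phf10 from 0.87 to 1.23, Smarcb1 from -0.71 to -0.42 and H3f3b from -1.03 to -0.43. Members called were 0 in both directions under every alternative but one: without IP 1 and Input 3 together 1 was lower (Hist1h2bc, -0.86, limma adjusted p = 0.0404), when 187 of all genes were higher and 160 lower. Of all genes, leaving out 1 library gave 0 to 16 higher and 0 to 1 lower, the most without Input 3. That reading without IP 1 and Input 3 reversed Ezh1 (0.06), H2afv (-0.11), H2afx (0.19), H2afy (-0.46), Hdac2 (-0.04), Hdac3 (-0.13), Hdac5 (-0.02), Phf21a (0.05), Smarca2 (0.17) and Smarcd3 (-0.40). The class medians were then 0.21 for CHD genes (0.03 in all 6 libraries, Chd3os included), 0.34 for methyltransferases (-0.05), 0.21 for PHD-finger genes (0.14), -0.42 for Hist-named genes (0.00), 0.21 for readers (-0.01) and -0.19 for deacetylases (0.15). With a minimum mean of 20 TPM the CHD median was -0.27, over Chd3, Chd9 and Chd3os alone, and the PHD-finger median 0.20, over fewer genes. Chd4, at 0.00, was -0.02 with a pseudocount of 0.1. It was -0.02 without centring of libraries, after the median difference of -0.23 over all genes was taken off. Quantile normalization, treated likewise, put Chd4 at -0.20 and Smarca2 at 0.04. Leaving out 1 library at a time changed the sign of Cbx5 (-0.27 to 0.07), Cbx6 (-0.06 to 0.57), Chd4 (-0.20 to 0.24), Chd9 (0.00 to 0.41), H2afv (-0.29 to 0.90), H2afx (-0.66 to 0.43), H2afy (-0.53 to 0.36), H2afz (-0.34 to 0.02), Hdac2 (-0.30 to 0.43), Hdac3 (-0.04 to 0.27), Phf21a (-0.12 to 0.05), Phf24 (-0.02 to 0.32), Smarca2 (-0.20 to 0.16) and Smarcd3 (-0.28 to 1.11). Class medians then ranged from -0.12 to 0.17 for CHD genes, -0.29 to 0.22 for methyltransferases, 0.06 to 0.25 for PHD-finger genes, -0.25 to -0.03 for SWI/SNF genes, -0.40 to 0.41 for Hist-named genes, -0.14 to 0.33 for deacetylases, -0.16 to 0.18 for readers and -0.29 to -0.01 for variant histones. The cause was not tested. With the replicate number as a block, members called stayed at 0 in both directions and the smallest adjusted p over all genes was 0.269. Deviations of same-numbered IP and Input libraries from their group means correlated at -0.0994, 0.249 and -0.167. Those of different numbers correlated at -0.249 to 0.189. These values cannot decide whether same-numbered libraries shared a pool, as the 3 deviations of a group sum to 0 and IP 1 and Input 3 stood apart. The labels name no pairs, so the main fit used none.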
